A study of Homo sapiens with 12 samples.

Results

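The 10 genes described here encode surface proteins by which tumour cells engage T cells and natural killer cells: CD274, PDCD1LG2, CD276, VTCN1, HHLA2, VSIR, CD80, PVR, NECTIN2 and ICAM1. They were picked by name, by a rule that uses no measured value but with earlier results of these data known, and are 10 of 19974 protein-coding genes considered on the autosomes and X. Most belong to the B7 family, immunoglobulin-like ligands that either restrain T cells, as when PD-L1 engages PD-1, or costimulate them. The nectins PVR and NECTIN2 are shared by the inhibitory receptor TIGIT and the activating receptor CD226. ICAM1 is the adhesion ligand of the integrin LFA-1, which holds lymphocytes on their targets. Trimethylation of lysine 27 of histone H3 (H3K27me3) is written by EZH2 in the Polycomb repressive complex and marks silenced genes, whereas H3K4me3 marks the start sites of genes that are active or poised, and a start site with both marks is called bivalent.

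The data were peak lists from CUT&RUN, in which an antibody directs a nuclease to cut out the chromatin it binds, in the MKL-1 cell line, which derives from a Merkel cell carcinoma with integrated Merkel cell polyomavirus. One group of cultures received 3 µM EPZ011989, an inhibitor of EZH2, in 1% ethanol, and the vehicle group received 1% ethanol alone. Both were harvested on day 6 after fresh medium on day 3, and the cells of each culture were divided between antibodies to H3K27me3, H3K4me3 and control IgG. There were 12 libraries in 6 groups of 2. Treatment was done in duplicate on a single line grown without immune cells, so the p-values below do not measure the spread between tumours. They rest on the spread between repeated cultures, pooled across genes. For H3K27me3 at the listed genes, the EPZ011989 libraries add no spread, since neither listed a peak there. RNA and surface protein were not analysed here.

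The 12 listed Merkel cell and neuroendocrine markers, among them ATOH1, SOX2 and KRT20, all carried H3K4me3 in both vehicle libraries, against 65.0% of all genes. Of the markers of other cells, H3K4me3 was found in both vehicle libraries at 2 of 9 for lymphoid and myeloid cells (CD14 and CD68) and 3 of 6 for fibroblasts (COL1A1, COL1A2 and DCN). It was also found at 1 of 5 for keratinocytes (KRT10) and 1 of 5 for endothelium (CDH5). PTPRC, which encodes CD45, had 0 bp in all 4 H3K4me3 libraries. Vehicle H3K27me3 libraries held 40782 and 44287 peaks, with an estimated background of 1.12 and 1.63 fragments per base, a stand-in for depth. The EPZ011989 H3K27me3 libraries held 363 and 22 peaks at a lower estimated background of 0.373 and 0.148. For the broad H3K27me3 lists this estimate could not be checked. The 4 H3K4me3 libraries were closer in size, with 21086 to 23804 peaks, but the background was higher with EPZ011989 (1.48 and 1.24) than with vehicle (0.572 and 0.857). The part that these differences in depth play in the results below was not tested. IgG libraries held 4 to 38 peaks, and none of them touched any of the 10 genes. At an estimated background of 0.0716 to 0.221 fragments per base, these lists were shallower than the vehicle H3K27me3 and all H3K4me3 lists, and a weak background signal could go uncalled in them.

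For every gene and library the measure was the number of bases inside peaks within 2500 bp of either gene end, at most 10002 bp, called the covered length. In vehicle, 7 of the 10 genes carried H3K27me3 in both libraries (CD276, VTCN1, VSIR, CD80, PVR, NECTIN2 and ICAM1), where 36.9% of all genes did. Vehicle H3K4me3 was found in both libraries at 5 of 10 (CD274, CD276, VSIR, PVR and NECTIN2), against 65.0% of all genes. Both marks were found in the window of 4 of 10 (CD276, VSIR, PVR and NECTIN2), against 24.2% of all genes. By window, the genes thus fell into 4 patterns in vehicle. CD274 had H3K4me3 in both libraries and H3K27me3 in at most 1. CD276, VSIR, PVR and NECTIN2 had both marks, VTCN1, CD80 and ICAM1 had H3K27me3 alone, and PDCD1LG2 and HHLA2 had neither. The H3K4me3 counted for NECTIN2 lay over the start of the adjacent gene TOMM40 and not over its own start, as described below.

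**Figure D1:**
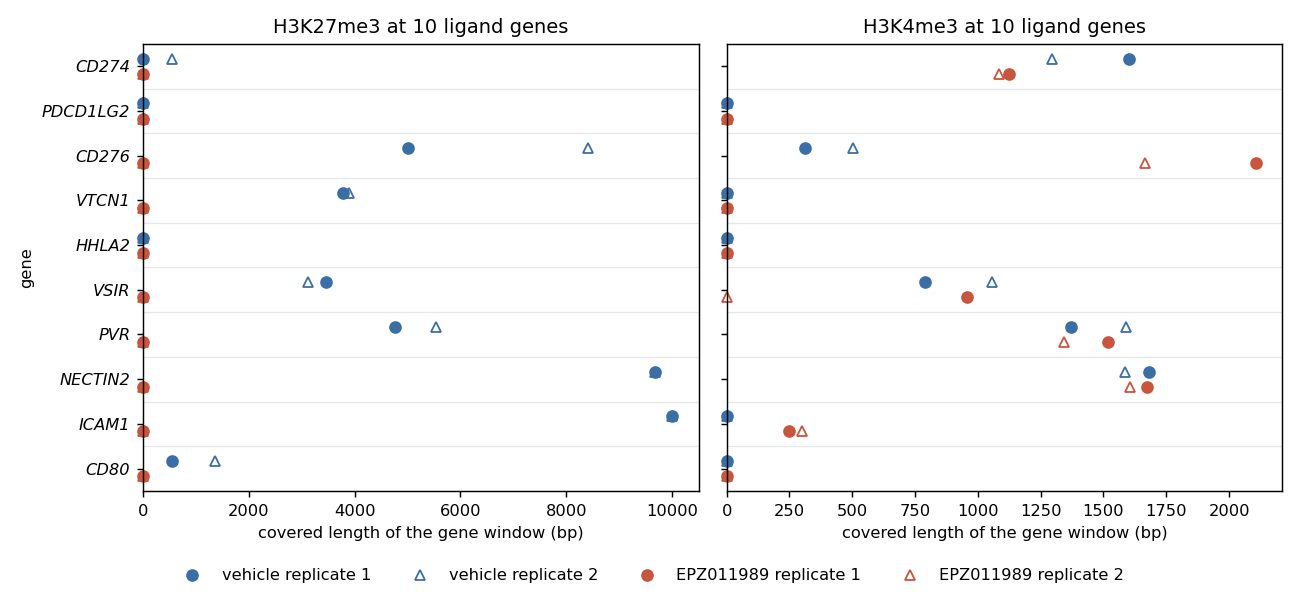
Covered length in bp at the 10 genes in each vehicle and EPZ011989 library, with H3K27me3 and H3K4me3 in separate panels and 1 point per library. H3K27me3 lies between 550 and 10002 bp in vehicle at the 7 genes marked in both libraries and at 0 in both EPZ011989 libraries, while H3K4me3 at CD276 is 311 and 502 bp in vehicle against 2107 and 1667 bp with EPZ011989, a difference that did not pass the adjusted threshold.

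After EPZ011989 no H3K27me3 peak was listed in any of the 10 windows. Thus 7 of 10 went from peaks in both vehicle libraries to none, against 36.8% of all genes. In the limma fit of covered length, H3K27me3 fell at 5 of the 8 genes that entered the test (VTCN1, VSIR, PVR, NECTIN2 and ICAM1), against 60.2% of the 9601 genes tested. All 8 entered through their vehicle values and were at 0 bp in both EPZ011989 libraries, so their direction was fixed by the filter and the size of each difference is the vehicle covered length. In the H3K4me3 fit 0 of 6 genes were called higher, with 0.0% of the 13796 tested genes called, and 0 of 6 were called lower, again with 0.0% called. Without adjustment, 1160 of all tested genes were higher and 204 lower in limma at p below 0.05, 1 of them a listed gene (CD276). Both EPZ011989 libraries lay above both vehicle libraries at 2 of 6 genes (CD276 and ICAM1), against 24.4% of all tested genes, and below them at 1 of 6 (CD274), against 12.7%. The median H3K4me3 difference was −22.75 bp over the 6 genes and 52.0 bp over all. With 2 libraries against 2, an exact permutation test of a single gene cannot give a p below 0.333, so the calls rest on limma's pooling of the spread across genes.

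The promoter sequences of 3 genes are given first, as examples of 3 of the 4 vehicle patterns: CD274 under an H3K4me3 peak in all 4 libraries, CD276 under both marks, and ICAM1 under H3K27me3 alone. The pattern with neither mark is not shown. Promoters run from 250 bases before to 50 after the start base and were taken from RefSeq on GRCh38.p14, where 9 of the 10 genes matched an entry. Capitals mark matches on either strand to a gamma-activated site (TTCNNNGAA, in 6.79% of 22140 promoters), a palindromic NF-kB site (GGAANTTCC, in 0.976%), an interferon regulatory factor site (GAAANNGAA, in 7.1%) or TATAAA (in 9.47%).
CD274, chr9:5450292-5450591, plus strand: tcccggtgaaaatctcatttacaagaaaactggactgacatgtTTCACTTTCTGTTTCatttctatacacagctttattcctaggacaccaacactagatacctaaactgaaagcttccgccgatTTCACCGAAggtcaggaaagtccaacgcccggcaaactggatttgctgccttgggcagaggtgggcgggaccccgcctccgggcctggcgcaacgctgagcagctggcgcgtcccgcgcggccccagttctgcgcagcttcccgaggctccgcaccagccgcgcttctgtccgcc
CD276, chr15:73684133-73684432, plus strand: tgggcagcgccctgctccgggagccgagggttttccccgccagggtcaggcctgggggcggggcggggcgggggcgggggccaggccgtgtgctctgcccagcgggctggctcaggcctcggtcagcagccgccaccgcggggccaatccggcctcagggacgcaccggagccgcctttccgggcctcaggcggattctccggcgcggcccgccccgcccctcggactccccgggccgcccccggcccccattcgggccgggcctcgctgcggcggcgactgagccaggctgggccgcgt
ICAM1, chr19:10270870-10271169, plus strand: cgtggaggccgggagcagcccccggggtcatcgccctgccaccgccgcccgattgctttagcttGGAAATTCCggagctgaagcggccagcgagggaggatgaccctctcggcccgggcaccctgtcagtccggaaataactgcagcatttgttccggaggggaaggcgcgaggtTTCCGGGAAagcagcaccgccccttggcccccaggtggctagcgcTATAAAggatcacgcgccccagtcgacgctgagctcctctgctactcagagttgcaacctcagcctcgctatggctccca
The CD274 promoter held a gamma-activated match beginning at position −125 from the start base and a pair of overlapping interferon regulatory factor matches further upstream. The ICAM1 promoter held an NF-kB match at −186, a gamma-activated match at −75 and TATAAA at −30. The CD276 promoter held none of the 4 motifs and was the richest of the 3 in CpG, with 37 CpG in 300 bases (more than 85.5% of promoters), compared with 24 at ICAM1 and 22 at CD274 and a median of 21 over all promoters. These are matches of letters only and carry no evidence of binding.

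CD274, which encodes PD-L1, the main ligand of PD-1, occupies chromosome 9 from 5450542 to 5470554 on the plus strand. Its start site lay under 1 H3K4me3 peak in every library, of 1602 and 1296 bp in vehicle and 1125 and 1086 bp with EPZ011989, and the whole promoter printed above was covered in all 4. Both treated widths were below both vehicle widths, but the difference of −344 ± 185 bp (SE) was not called by limma (Benjamini-Hochberg adjusted p = 0.648). The peak summits held 35 and 54 fragments in vehicle and 54 and 19 with EPZ011989, or 61.1, 63.0, 36.6 and 15.3 times the background of their libraries. EPZ011989 replicate 2 was the lowest on this scale, for which no test was made. H3K27me3 at CD274 was a flanking feature in vehicle: the nearest peak ended 2722 bp before the gene in replicate 1, outside the window, and 1945 bp before it in replicate 2, where it covered 556 bp of the window. That peak had a fold of 3.24 in the authors' list, and the H3K27me3 difference was not called (−278 ± 247 bp, limma adjusted p = 0.361).

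PDCD1LG2, which encodes PD-L2, the other ligand of PD-1, lies on the same chromosome from 5510531 to 5571282 and had 0 bp of either mark in every library. Its nearest vehicle H3K27me3 peaks were 62.7 and 61.9 kb away. HHLA2, a B7 family member that binds TMIGD2 and KIR3DL3 (chromosome 3, 108296548 to 108378285), had 0 bp of both marks in every library too, with the nearest vehicle H3K27me3 peaks 72.2 and 154 kb away. Neither gene could enter a test.

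CD276, which encodes the T-cell inhibitory ligand B7-H3, spans chromosome 15 from 73683944 to 73714514 on the plus strand, and it was the gene of the 10 with the largest H3K4me3 difference. In vehicle its start lay inside a broad H3K27me3 peak of 24103 bp in replicate 1 and 25813 bp in replicate 2, a width reached by 1.96% and 1.91% of the peaks of those libraries. H3K27me3 peaks covered 69.2% and 79.8% of the gene in vehicle and none of it in either EPZ011989 library. The covered length of the window was 5001 and 8412 bp in vehicle and 0 in both treated libraries. The vehicle values differed because replicate 2 alone had a peak, 3411 bp wide, over the far end of the gene. The difference of −6707 ± 1520 bp had a limma adjusted p of 0.0501, just short of the threshold of 0.05. At the start sites alone the vehicle libraries were equal, at 5388 bp each against 0 and 0, and there the call was made (limma adjusted p = 3.68e-21). That p, like those of NECTIN2 and ICAM1 below, comes from replicates with identical values and so rests on the spread borrowed from other genes. The CD276 start-site values were equal in vehicle because a wider peak filled the window, so they do not measure how well the replicates agreed.

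H3K4me3 at the CD276 start was a narrow peak in vehicle, 311 bp wide in replicate 1 and 502 bp in replicate 2, and a broader one with EPZ011989, at 2107 and 1667 bp. The groups did not overlap: vehicle averaged 407 ± 135 bp and EPZ011989 1887 ± 311 bp (SD, n = 2 in each group). The increase of 1481 ± 217 bp (SE) had an unadjusted limma p of 0.000819 and an adjusted p of 0.15, so it did not pass. Among the 13796 tested genes, 116 (0.841%) had a difference as high, and CD276 was the only 1 of the 6 tested ligand genes whose treated libraries both exceeded both vehicle libraries by 1000 bp or more, against 1.07% of tested genes. Summit fragments were 9 and 9 in vehicle and 60 and 33 with EPZ011989, or 15.7 and 10.5 times background in vehicle and 40.6 and 26.5 times with EPZ011989, so treated summits were higher on both scales. CD276 has a second RefSeq start site at 73684770, which lay in an H3K4me3 peak in neither vehicle library and in both EPZ011989 libraries. The 300 bases of the promoter printed above were covered over 102 and 300 bases in vehicle and in full with EPZ011989. EPZ011989 replicate 1 also had a 798 bp peak within the gene, which replicate 2 lacked.

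**Figure D2:**
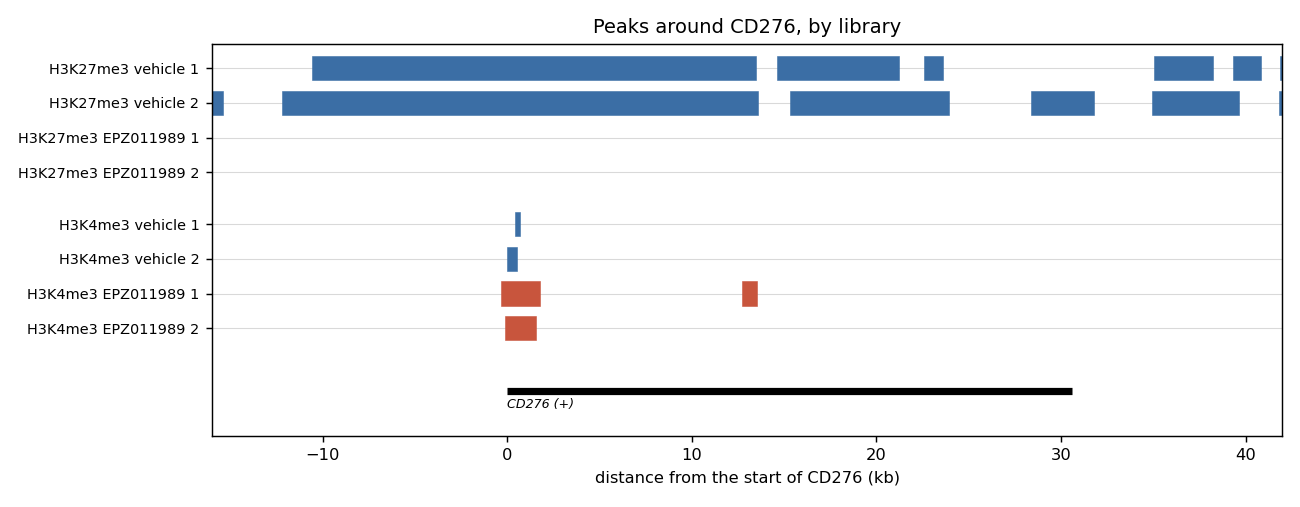
H3K27me3 and H3K4me3 peaks around CD276, 1 row per library, against distance from the gene's start in kb; each bar is a deposited peak drawn to scale. The vehicle H3K27me3 peaks of 24103 and 25813 bp span the start and have no counterpart with EPZ011989, where the H3K4me3 peak at the start is 2107 and 1667 bp wide instead of 311 and 502 bp.

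**Figure D3:**
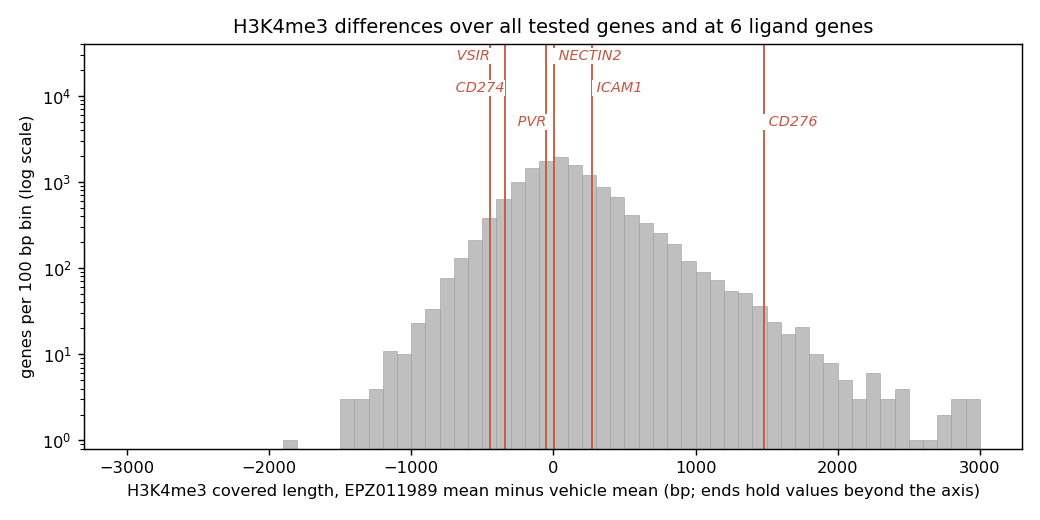
Histogram of the H3K4me3 difference, EPZ011989 mean minus vehicle mean in bp, over the 13796 tested genes on a logarithmic count axis, with a line for each of the 6 ligand genes tested. CD276 at 1481 bp lies in the right tail, and the other lines lie between −444.5 bp (VSIR) and 274.5 bp (ICAM1).

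VTCN1, which encodes the T-cell inhibitory ligand B7-H4, lies on the minus strand of chromosome 1 from 117143587 to 117210927. Its H3K27me3 covered length was 3780 and 3904 bp in vehicle and 0 in both EPZ011989 libraries, and it fell by 3842 ± 56.8 bp (SE, limma adjusted p = 0.000169). The vehicle peaks at the start were 5286 and 4922 bp wide, with folds of 3.25 and 3.51 in the authors' lists. No H3K4me3 was present in any library, with or without H3K27me3. Its promoter held 7 CpG in 300 bases, fewer than the median of 21.

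VSIR, which encodes the T-cell inhibitory protein VISTA, lies on the minus strand of chromosome 10 from 71747556 to 71773520, inside the larger gene CDH23, so its peaks cannot be assigned to VSIR alone. H3K27me3 covered 3467 and 3128 bp in vehicle and 0 bp in both EPZ011989 libraries, and fell by 3298 ± 151 bp (SE, limma adjusted p = 0.00188). H3K4me3 at the start measured 789 and 1056 bp in vehicle, 956 bp in EPZ011989 replicate 1 and 0 bp in EPZ011989 replicate 2. The replicates of the treated group therefore differed more than the groups did, and the H3K4me3 difference of −445 ± 343 bp was not called (limma adjusted p = 0.791). Without EPZ011989 replicate 2 it was 33.5 bp. The 3 peaks present held 17, 13 and 15 fragments at the summit, or 29.7, 15.2 and 10.2 times background.

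CD80, a ligand of CD28 and of the inhibitory receptor CTLA-4, lies on the minus strand of chromosome 3 from 119524293 to 119559614. H3K27me3 covered only 550 and 1366 bp in vehicle, in peaks with folds of 2.71 to 3.8, and 0 bp with EPZ011989. The groups did not overlap, but the difference of −958 ± 363 bp (SE) was not called (limma adjusted p = 0.135). On a log2 scale the fall was called (limma adjusted p = 0.016), and with quantile normalization the sign turned. Like VTCN1, CD80 had no H3K4me3 in any library and 7 CpG in its promoter.

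PVR, which encodes CD155, lies on chromosome 19 from 44643910 to 44666162, and NECTIN2, which encodes CD112, lies downstream on the same strand from 44846297 to 44889223. From the start of PVR to the end of NECTIN2, a stretch of 245314 bp, H3K27me3 peaks covered 90.0% and 91.3% in vehicle and 0 bp in both EPZ011989 libraries. The peaks at PVR were among the widest in their libraries. One of 145544 bp in replicate 1 and 146795 bp in replicate 2 reached from upstream to 1829 and 2750 bp past the start of PVR, and only 0.123% and 0.124% of the peaks in those libraries were as wide. A second, of 129989 and 129067 bp, began downstream of PVR, 26.8 and 27.9 kb after its start. NECTIN2 lay within a peak of 89301 and 89361 bp that covered the gene in full.

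H3K27me3 in the PVR window covered 4768 and 5539 bp in vehicle, of which 438 and 538 bp lay in the part shared with the overlapping gene CEACAM19. It covered 0 bp in both treated libraries, and fell by 5154 ± 343 bp (SE, limma adjusted p = 0.00408). With either EPZ011989 library left out the call was lost (limma adjusted p = 0.0571 without replicate 1 and 0.0575 without replicate 2). At the same start an H3K4me3 peak was present in every library, 1371 and 1591 bp wide in vehicle and 1517 and 1342 bp with EPZ011989. The groups overlapped, and the difference of −51.5 ± 181 bp was not called (limma adjusted p = 0.975). Its sign turned without vehicle replicate 2 (58.5 bp) and without EPZ011989 replicate 2 (36.0 bp). Summits held 64 and 60 fragments in vehicle and 126 and 52 with EPZ011989, or 112, 70.0, 85.3 and 41.8 times background. PVR thus had an H3K4me3 peak of similar width in all 4 libraries, beside H3K27me3 that was listed only in vehicle.

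The NECTIN2 window held 9683 bp of H3K27me3 in each vehicle library and 0 bp in each EPZ011989 library, and the fall was called (limma adjusted p = 3.06e-20, from identical replicates). Its H3K4me3 values of 1680 and 1587 bp in vehicle and 1675 and 1604 bp with EPZ011989 did not come from its own start. They belonged to a peak of 2473 to 2883 bp over the start of the adjacent gene TOMM40, which encodes a mitochondrial import channel. The peak reaches into the window at the NECTIN2 end. At the NECTIN2 start itself H3K4me3 was 0 bp in all 4 libraries. The window difference of 6.0 ± 167 bp was not called (limma adjusted p = 1.0) and changed sign under several settings. By its own start, then, NECTIN2 had a listed peak of H3K27me3 alone in vehicle and of neither mark with EPZ011989.

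**Figure D4:**
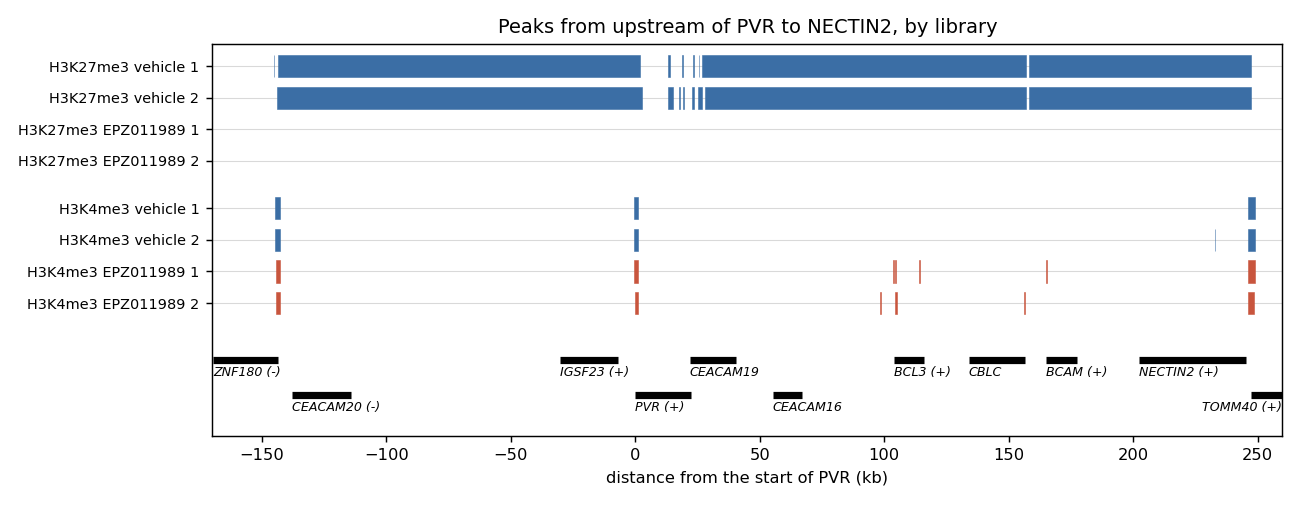
H3K27me3 and H3K4me3 peaks from upstream of PVR to downstream of NECTIN2, 1 row per library, against distance from the PVR start in kb. Vehicle H3K27me3 covers 90.0% and 91.3% of the stretch between the PVR start and the NECTIN2 end and EPZ011989 libraries list no such peak there, while H3K4me3 at the PVR start and at the TOMM40 start appears in all 4 libraries.

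ICAM1 lies on the plus strand of chromosome 19 from 10271120 to 10286615, upstream of ICAM4 and ICAM5, which encode an erythroid and a neuronal member of the same adhesion family. A single H3K27me3 peak of 42072 bp in vehicle replicate 1 and 41259 bp in replicate 2 covered all 3 genes. Its fold was 15.0 and 17.3 in the authors' lists, and 0.826% and 0.885% of the peaks in those libraries were as wide. The ICAM1 window was covered over its full 10002 bp in both vehicle libraries and over 0 bp in both EPZ011989 libraries (limma adjusted p = 2.11e-21, from identical replicates). The promoter printed above lay wholly in H3K27me3 in vehicle and in no peak of either mark with EPZ011989.

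The ICAM1 window held no H3K4me3 in either vehicle library, and 250 and 299 bp of it after EPZ011989. The groups did not overlap, yet the difference of 274.5 ± 157 bp was not called (limma adjusted p = 0.678), and 25.7% of tested genes had a difference as high. These bases were the edge of a peak across the ICAM5 start, not over the ICAM1 start, where no library had H3K4me3. In vehicle the peak there lay just upstream of the ICAM5 start without reaching it. It was 483 and 396 bp wide in vehicle and 1949 and 1942 bp with EPZ011989, with summits of 5 and 12 fragments in vehicle and 36 and 17 with EPZ011989. Relative to background the summits were 8.74 and 14.0 in vehicle and 24.4 and 13.7 with EPZ011989, so on that scale EPZ011989 replicate 2 lay within the vehicle range. In the window of ICAM5 the H3K4me3 covered length went from 483 and 396 bp to 2267 and 2150 bp, which was not called (limma adjusted p = 0.0735). A second peak, of 681 and 452 bp, was listed further into ICAM5 in the EPZ011989 libraries alone. With windows of 5000 bp, which reach the whole of the ICAM5 peak, the ICAM1 difference was 1506 bp and was called (limma adjusted p = 0.0421).

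**Figure D5:**
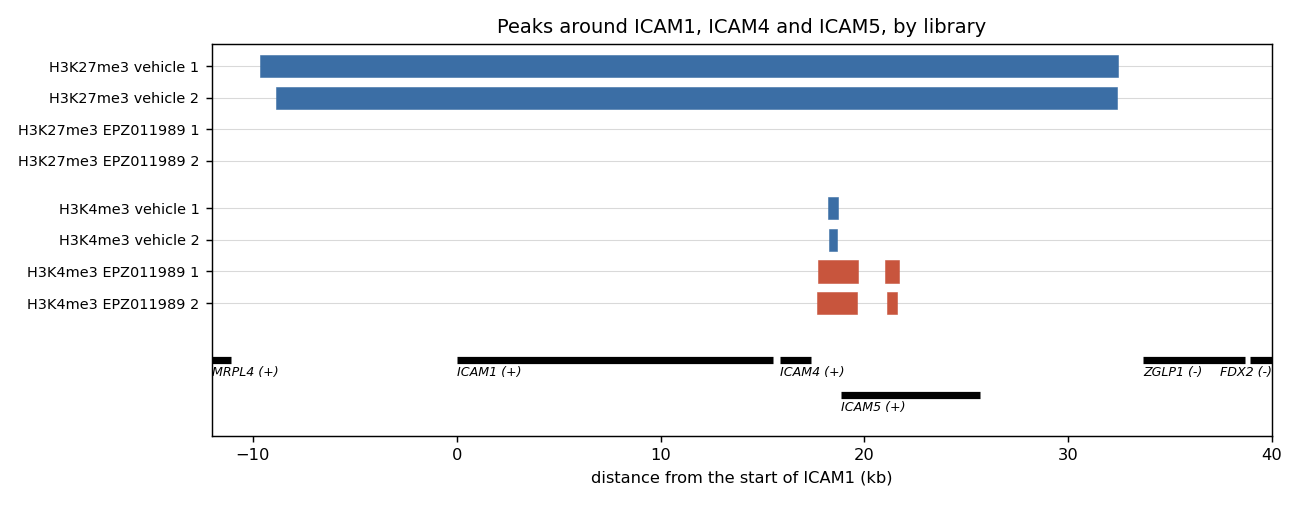
H3K27me3 and H3K4me3 peaks around ICAM1, ICAM4 and ICAM5, 1 row per library, against distance from the ICAM1 start in kb. The vehicle H3K27me3 peak of 42072 and 41259 bp spans the 3 genes, and the H3K4me3 peak that is 1949 and 1942 bp wide with EPZ011989 lies over the ICAM5 start and not the ICAM1 start.

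The strength of vehicle H3K27me3 differed among the marked genes. With only peaks of a −log10 q of at least 5 in the authors' lists, 4 of the 7 marked genes kept H3K27me3 in both vehicle libraries: CD276, PVR, NECTIN2 and ICAM1. The share of all marked genes that kept it is not given here, so 4 of 7 cannot be set against other genes. VTCN1, VSIR and CD80 had vehicle peaks at or near their starts with folds of 2.71 to 3.98. The 4 genes in strong domains differed in what H3K4me3 did with EPZ011989. At its own start PVR had a peak of similar width throughout, CD276 had a short peak that was longer in both treated libraries, and ICAM1 and NECTIN2 had none in any library. This is a description of 4 genes, and no difference between them was tested.

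Related genes were counted in 6 further lists. Of the other B7 and butyrophilin genes, 11 of 14 were marked with H3K27me3 in both vehicle libraries, and the mark fell in limma at 6 of the 12 tested; over all genes these shares were 36.9% and 60.2%. Examples are BTNL2 (10002 bp in each vehicle library) and BTNL9 (8981 and 9199 bp), of the butyrophilin-like family. Of the other nectins and nectin-like genes, which encode cell junction proteins, 6 of 7 were marked and 5 of 6 tested fell. NECTIN4 went from 7128 and 8129 bp to 0 bp (limma adjusted p = 0.00741). Of the other adhesion ligands 12 of 16 were marked and 9 of 13 tested fell, and of the other checkpoint ligands 4 of 10 were marked and 4 of 5 tested fell, among them TNFRSF14 (8419 and 8849 bp to 0 bp), the ligand of BTLA, and SEMA4A (8708 and 8751 bp to 0 bp). Since almost no H3K27me3 peak was listed with EPZ011989, the direction of these differences was fixed by the requirement of a peak, and no list was tested against other genes.

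No gene of these lists was called for H3K4me3 in limma in either direction, where 0.0% of all genes were. Both EPZ011989 values lay above both vehicle values at 4 of 6 tested nectin and nectin-like genes, 5 of 10 adhesion ligands, 1 of 6 B7 and butyrophilin genes and 1 of 5 checkpoint ligands. The same held for 0 of 4 receptor genes and 4 of 16 genes of interferon gamma and NF-kB control, against 24.4% of all tested genes. Among the adhesion ligands, ICAM4 and ICAM5 were counted from a shared peak, the edge of which also lay in the ICAM1 window with EPZ011989. NECTIN3, a partner of PVR, had 2351 and 2713 bp of H3K4me3 in vehicle and 3434 and 3390 bp with EPZ011989 (limma adjusted p = 0.312), together with 5001 bp of H3K27me3 in each vehicle library and none with EPZ011989. CADM3, a nectin-like adhesion gene, had 1707 and 1668 bp of H3K4me3 in vehicle and 2836 and 2713 bp with EPZ011989 (limma adjusted p = 0.183).

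Genes for the receptors of these ligands, which act on T and natural killer cells, had H3K4me3 in both vehicle libraries at 3 of 16, against 65.0% of all genes. H3K27me3 was present in both at 4 of 16, against 36.9%, and fell in limma at 4 of 6 tested, against 60.2%, including ITGAL and ITGB2, the subunits of LFA-1 (5001 and 10002 bp in each vehicle library). Genes of interferon gamma signalling, NF-kB and PD-L1 stability had H3K4me3 in both vehicle libraries at 16 of 17, against 65.0%. H3K27me3 was present in both at 5 of 17, against 36.9%, and fell in limma at 3 of the 7 tested, against 60.2%, among them SOCS1, an inhibitor of JAK kinases (6788 bp in each vehicle library to 0 bp), and IRF1, a transcription factor that drives CD274 (2516 and 2551 bp to 0 bp).

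The genes most like each ligand gene over the 8 covered lengths of both marks were found by Euclidean distance in bp. For ICAM1 they were CCDC194 (119 bp) and IGF2 (179 bp), for PVR ULBP2 (395 bp) and GLIS1 (471 bp), and for NECTIN2 MYBPC2 (503 bp) and CIART (646 bp). For CD276 the nearest were AHNAK and TRAF5, at 1090 and 1130 bp, a larger distance than for ICAM1, PVR or NECTIN2. The nearest for VTCN1 were RYR3 (86.0 bp) and APOC2 (91.8 bp), for VSIR LOC101927375 (749 bp) and ZNF883 (829 bp), and for CD80 LCN6 (58.5 bp) and CCL4L2 (92.1 bp).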

How the data were processed

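Peak lists of 12 libraries were used as deposited, on hg38. MACS2 2.1.1.20160309, SAMtools 0.1.19, Bowtie2 2.2.9 and FastQC are named, without roles, per the submitters' processing notes. Calling thresholds, control library, duplicate handling and spike-in scaling are not given in the sources used here. The authors deposited 1 list per library, in broad format for H3K27me3 and narrow format otherwise. In the deposited lists each peak has a fold (a ratio of pileup to background), a −log10 p, a −log10 q and a score. The fold and −log10 q are the authors' own values and served only to describe or filter peaks within a list. Covered lengths depend on each library's depth, which the lists do not give, and no scaling was applied.

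Gene ends came from a RefSeq table of GRCh38.p14, and strand and start sites from the RefSeq promoter table. Overlapping parts of a window were counted once. Background fragments per base were solved from the most frequent fold and its −log10 p, on the assumption that the deposited fold is pileup plus 1 over background plus 1, and summit fragments follow from them. For H3K4me3 100.0% of peaks came out whole within 0.02. This check could not be made on the broad H3K27me3 lists, so their background values are less certain. Each mark was fitted separately with limma 3.58.1 (R 4.3.3; trend and robust options), without a replicate block. Genes at 0 bp in all 4 libraries were left out, and Benjamini-Hochberg adjustment ran over all others, with a threshold of 0.05. Peak width and summit height were described without a test.

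Tested on simulated data, the fit called 25 of 9382 unchanged H3K27me3 windows and 94 of 200 removed ones. In the simulation most windows kept H3K27me3, whereas almost no peak was listed in the EPZ011989 libraries. The spread pooled across genes therefore differs, and these H3K27me3 rates do not carry over to the fit of the data. For H3K4me3 it called 2 of 13129 unchanged windows, 22 of 100 that had been lengthened by 1000 bp and 46 of 100 lengthened by 2000 bp. The lengthened windows all had more H3K4me3 in vehicle than CD276 or ICAM1, and no difference in depth between the groups was simulated. These H3K4me3 rates therefore do not carry over to those 2 genes or to libraries of unequal depth. The 10 genes and all lists were chosen with earlier results of these data known. All 10 were named. From each of the 6 other lists, names came from the 3 genes with the largest vehicle H3K27me3 and the 2 with the largest H3K4me3 difference. The 2 genes of smallest distance were named for each gene marked in both vehicle libraries. ICAM4, ICAM5, TOMM40 and CDH23 were named because they share sequence or peaks with a listed gene, as does CEACAM19. Alternatives were other windows, start sites alone, a stricter −log10 q, quantile normalization, no gene filter, a log2 scale, a replicate block and leaving out each library.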

Additional observations from a re-analysis of the deposited data

How the results depend on the processing

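Only peak lists were used, so a mark below the calling limit of a shallow library is listed at 0 bp. The EPZ011989 H3K27me3 libraries had the lowest estimated background of the libraries with a histone antibody. Of the single-gene values under the alternatives, 75 kept direction and call for H3K27me3, 10 gained a call, 3 lost it and 2 reversed. Of the 75 and the 10, 10 and 5 came with a vehicle library left out and carry no weight. All listed genes were at 0 bp in both EPZ011989 H3K27me3 libraries, so only quantile normalization could turn the direction. For H3K4me3 59 kept both, 3 gained a call and 7 reversed.

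The number of genes with lower H3K27me3, 5784, was 3410 with start sites only, 3301 with the stricter q and 3598 with quantile normalization, and 3210 to 8885 when each library was left out in turn. Genes with higher H3K27me3, 0 in limma, numbered 3301 with quantile normalization, which forces equal totals on libraries of unequal content, and 0 to 7 with a library left out. Of the 10 genes, 5 were lower, and 4 to 8 with a library left out. The 7 and 8 arose with 1 vehicle library left against EPZ011989 values of 0 bp, where the lone library is assumed to vary like the other group, whose spread here is 0, so those calls carry no weight, and nor do the 8885 and 8035 over all genes without vehicle replicate 1 and 2. Quantile normalization put 2 higher, reversing CD274 (1002 bp) and CD80 (650.4 bp). The stricter q left 4 of the 7 genes with H3K27me3 in both vehicle libraries. At CD276 the H3K27me3 call, missed at an adjusted p of 0.0501 in limma, was made with windows of 5000 bp, start sites only, the stricter q and the log2 scale. With start sites only and with the stricter q the vehicle replicates were identical, so the calls there rest on spread borrowed from other genes. The CD276 call was missed with windows of 1000 bp (adjusted p = 0.101), quantile normalization (0.0694), no filter (0.126) and the replicate block (0.106), and without EPZ011989 replicate 1 (0.232) or replicate 2 (0.235).

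Genes with higher H3K4me3, 0 in limma, numbered 2 with windows of 1000 bp, 35 with windows of 5000 bp, 89 with quantile normalization and 491 with no filter. Genes with lower H3K4me3, also 0, numbered 4, 7 and 32 with windows of 1000 bp, quantile normalization and no filter. Among the 10 genes 1 was called higher with windows of 5000 bp (ICAM1), 1 with quantile normalization and 1 with no filter (CD276 in both, limma adjusted p = 0.0364 and 5.51e-07). With a library left out, the H3K4me3 difference ran from −922.5 to 33.5 bp at VSIR, from −161.5 to 58.5 bp at PVR and from −40.5 to 52.5 bp at NECTIN2. It reversed at VSIR without EPZ011989 replicate 2 (33.5 bp), at PVR without vehicle replicate 2 (58.5 bp) and without EPZ011989 replicate 2 (36.0 bp). At NECTIN2 it reversed with windows of 5000 bp (−152 bp), quantile normalization (−149 bp), without vehicle replicate 2 (−40.5 bp) and without EPZ011989 replicate 1 (−29.5 bp). The cause of these changes was not tested.

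The labels do not say whether same-numbered cultures were paired. Replicate 1 minus replicate 2 in vehicle and in EPZ011989 had a correlation across genes of 0.0162 for H3K27me3 and −0.0296 for H3K4me3. For H3K27me3 a value near 0 was fixed beforehand, because almost no peak was listed with EPZ011989. Neither value can decide whether same-numbered cultures were handled together. A replicate block gave 4555 genes with lower and 0 with higher H3K27me3, and 0 genes in either direction for H3K4me3. The H3K27me3 fit with no filter was run without limma's robust option, which could not be fitted there.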

Other observations

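The protein-coding genes mapped from the end of PVR to NECTIN2 are CEACAM19, CEACAM16, BCL3, CBLC and BCAM, all named after their values were seen. CEACAM19 overlaps the end of PVR. BCL3 encodes a nuclear co-regulator of NF-kB, CBLC a ubiquitin ligase and BCAM a laminin receptor. H3K27me3 in the window was 10002 bp in each vehicle library at BCL3 and BCAM and 8598 and 8813 bp at CBLC, and 0 bp with EPZ011989 at these 3. At CEACAM19 it was 5439 and 5816 bp and at CEACAM16 10002 bp in each vehicle library, again with 0 bp after EPZ011989, and neither gene had H3K4me3 in any library. No vehicle library had H3K4me3 at any of the 5 genes. With EPZ011989, H3K4me3 covered 1551 and 642 bp at BCL3 in replicates 1 and 2, 504 bp at BCAM in replicate 1 alone and 487 bp at CBLC in replicate 2 alone. BCL3 was thus the only 1 of these 5 genes with H3K4me3 in each EPZ011989 library.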
